A study of Saccharomyces cerevisiae with 9 samples.

Results

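Rapamycin binds the small protein Fpr1, and the pair inhibits the TOR kinase complex 1, which in growing yeast promotes ribosome production and translation and holds back autophagy and several starvation programmes. The comparison described here is between budding yeast grown with rapamycin (RM) and untreated cells (NR), both harvested on day 5 after inoculation, when cultures in rich medium have usually stopped dividing. Both groups were of the BY4741 background, a haploid laboratory strain of mating type a that lacks working copies of HIS3, LEU2, MET17 and URA3, and both grew in YPD, a rich medium, with 2% glucose at 30 °C. RM cultures also held 100 nM rapamycin. Each group had 3 biological replicates with 1 Affymetrix Yeast 2.0 array each, so the comparison uses 6 of the 9 arrays of the series, and it takes in all 5667 genes of the deposited table. The remaining 3 arrays, of cells in 0.5% glucose (CR), entered the fit and served only to ask where RM differed from CR. The labels do not state whether the drug was present from inoculation or added later.

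Levels below are normalized log2 signals per array, given in the order of replicates 1, 2 and 3, and a difference is the RM mean minus the NR mean on that log2 scale, so 1 is a 2-fold change. A gene was called changed at an adjusted p under 0.05 by limma's moderated test with Benjamini-Hochberg adjustment over all 5667 genes. Levels of different genes are not compared, since probe sets differ in brightness, and near-identical gene copies may share signal between their probe sets. In RNA from whole cultures, fewer cells making a transcript and less of it per cell cannot be told apart.

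The arrays differed in how tightly they grouped, and this bears on every count below. The median standard deviation of a gene across replicates was 0.294 in NR, 0.161 in RM and 0.0553 in CR, so the fit over all 9 arrays, the main one, used a pooled spread below that of the NR arrays themselves. A fit of the NR and RM arrays alone is therefore given beside each main count as the stricter reading. A gene said below to have risen or fallen was called in both fits unless the text says otherwise. NR replicate 3 stood farthest from its group, with a standard deviation of 0.432 across genes from the group mean and a mean correlation of 0.938 with the other NR arrays. NR replicate 1 correlated slightly more with the RM arrays (mean 0.958) than with the other NR arrays (0.952). The genes deleted in the strain were near the bottom of the scale in all 6 arrays, with URA3 between 0.71 and 1.03, MET17 between 1.28 and 1.67 and LEU2 between 1.73 and 2.01. HIS3, whose allele in this strain lacks only part of the gene, lay between 6.09 and 6.83. The summed linear signal of genes specific to mating type a was 1115, 1417 and 4455 in NR and 1836, 1450 and 2027 in RM, with NR replicate 3 the highest. By limma, 0 of these 7 genes were called, and 0 had an unadjusted p under 0.05; without NR replicate 3, 3 were called higher, and without NR replicate 1, 2 were called lower. The sum of 5 measured genes of the opposite mating type was 164.0 to 265.9 in NR and 279.3 to 394.1 in RM, but these genes did not move together. Of the 5, 2 were called higher and 0 lower in the main fit, and 1 and 0 with the NR and RM arrays alone. SAG1, an alpha-cell agglutinin, rose by 1.22. Differences were above 0 for 3 and below 0 for 2, MF(ALPHA)1 and MF(ALPHA)2, with deposited signed folds of -2.03 and -1.62.

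Rapamycin changed many transcripts by small amounts and few by large ones. Of 5667 genes, 2099 (37.0%) were called, 997 higher (17.6%) and 1102 lower (19.4%) in RM, and in 1998 of the 2099 (95.2%) the 3 RM arrays did not overlap the 3 NR arrays. Over all genes, the RM arrays lay wholly above the NR arrays for 1177 (20.8%) and wholly below for 1288 (22.7%). With the NR and RM arrays alone, 921 genes (16.3%) were called, 473 higher (8.35%) and 448 lower (7.91%), and all 921 were among the 2099 with the same direction. The main count depended on single arrays: it was 1205 without RM replicate 1, 1381 without RM replicate 2 and 2729 without NR replicate 1. Without NR replicate 3 it was 2160 (38.1%), of which 1789 were among the 2099. The median size of a change was 1.31-fold over all genes and 1.65-fold over called genes.

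Changes of at least 2-fold numbered 490 (8.65%), of which 226 were higher (3.99%) and 264 lower (4.66%). Of these 490, 411 were also called from the NR and RM arrays alone. Without NR replicate 1 the number was 783. Under 1.5-fold, 298 genes were called higher and 337 lower in the main fit, but only 23 of these small changes were called from the NR and RM arrays alone. Only 32 called genes changed 4-fold or more, 25 of them between 4- and 8-fold and 7 beyond 8-fold.

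**Figure D1:**
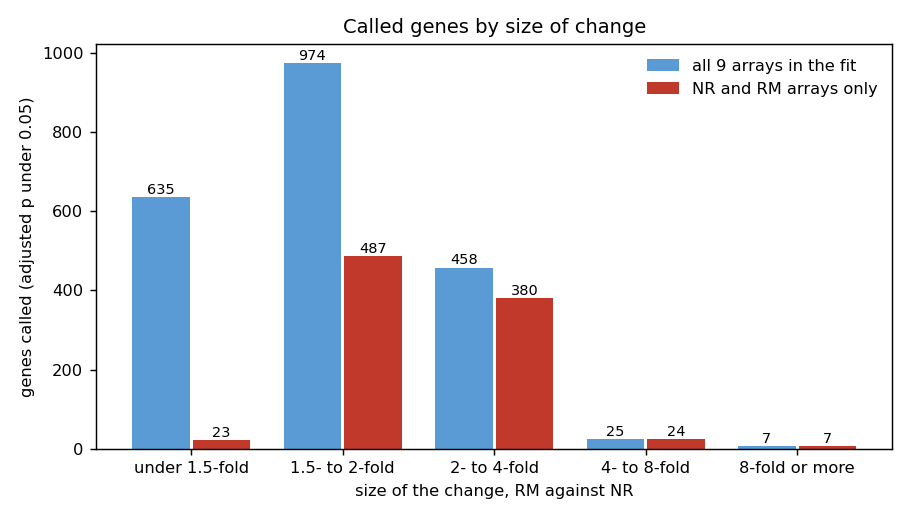
Bars give the number of genes called (adjusted p under 0.05, limma) by size of the RM against NR change, with all 9 arrays in the fit (blue) and with the NR and RM arrays only (red). Most calls under 1.5-fold, 635 in blue against 23 in red, were made only when the CR arrays contributed to the spread, whereas the counts of 24 and 25 between 4- and 8-fold nearly coincide.

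The largest rises were in genes of zinc uptake. Zinc-poor yeast cells switch on Zap1, a transcription activator that raises its own gene and those of zinc transporters. ZPS1, a Zap1 target whose product is a secreted protein, read 5.89, 6.27 and 5.32 in the NR arrays and 10.3, 10.32 and 10.73 in the RM arrays. Every RM value lay more than 4 log2 units above every NR value, and the difference was 4.62 ± 0.23 (SE, n = 3 a group, limma adjusted p = 1.01e-05). ZRT1, the high-affinity zinc transporter of the plasma membrane, read 8.57, 7.69 and 7.84 in the NR arrays and 12.08, 11.74 and 11.92 in the RM arrays. The RM arrays were again far above the NR arrays, with a difference of 3.88 ± 0.21 (limma adjusted p = 1.5e-05). ZRT2, the low-affinity transporter, read 6.89, 6.67 and 7.0 in the NR arrays and 9.85, 9.4 and 10.18 in the RM arrays, without overlap, and rose by 2.95 ± 0.19.

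Of the 24 genes listed as zinc transporters and Zap1 targets, 12 were higher and 2 lower in the main fit, and 10 and 1 with the NR and RM arrays alone. Their median difference was 0.6, against -0.05 over all genes. Besides the 3 genes above, RTC4 rose by 1.85 and ADH4, an alcohol dehydrogenase under Zap1 control, by 1.47, and their RM arrays lay above all NR arrays. The vacuolar zinc exporter gene ZRT3 read 8.94, 8.81 and 8.84 in the NR arrays and 10.28, 10.32 and 10.13 in the RM arrays and rose by 1.38. ZRC1, which carries zinc into the vacuole, rose by 1.11. ZRT3 and ZRC1 fell outside the naming rule and were picked after their values were seen. ZAP1 itself read 9.08, 8.15 and 7.63 in the NR arrays and 9.39, 9.87 and 9.06 in the RM arrays, a difference of 1.15, with an adjusted p of 0.0262 in the main fit and 0.0711 with the NR and RM arrays alone. Its lowest RM value was below NR replicate 1. The median over the list, each gene set to its NR mean, was -0.07, -0.06 and 0.09 in the NR arrays and 0.5, 0.69 and 0.67 in the RM arrays.

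Other genes with large rises had several roles. DTR1, a transporter of dityrosine for the spore wall, read 2.2, 2.2 and 2.2 in the NR arrays and 5.39, 5.14 and 5.62 in the RM arrays. Its 3 NR values were identical in the deposited table, as for 4 genes in all, and it rose by 3.18. Those NR values lie close to the 1.73 to 2.01 of the deleted gene LEU2, so they are not shown to be above background and the difference is not an exact size. PHO92, which binds methylated adenosine in messenger RNA, rose by 3.0, and MSH4, a meiotic crossover protein, by 2.52. CIN5, a transcription factor of the Yap family, read 6.91, 6.48 and 4.69 in the NR arrays and 8.68, 8.9 and 8.63 in the RM arrays. Its RM arrays agreed closely while its NR arrays spread over more than 2 log2 units, yet the groups did not overlap and it rose by 2.72 ± 0.46. DSE4, a glucanase of daughter cell separation, rose by 2.39, and GTO1, a glutathione transferase, by 2.33. YML003W, YDR109C and YMR175W-A rose by 3.15, 2.35 and 2.28.

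The deepest fall was in a gene of pyrimidine synthesis. URA1, dihydroorotate dehydrogenase, read 10.28, 10.3 and 10.7 in the NR arrays and 6.94, 6.53 and 6.91 in the RM arrays. All 3 RM values were more than 3 log2 units below the NR values, and the difference was -3.63 ± 0.16 (SE, n = 3 a group, limma adjusted p = 7.06e-06). URA2, which catalyses the opening steps of the pathway, read 11.35, 11.17 and 12.14 in the NR arrays and 9.19, 9.17 and 9.23 in the RM arrays, again without overlap, with a difference of -2.35 ± 0.22 (limma adjusted p = 0.000228). URA4, dihydroorotase, fell by 1.24 and FUI1, the uridine permease, by 1.56. Of 24 measured genes of pyrimidine synthesis, salvage and uptake, 6 were lower and 2 higher, and 5 and 1 with the NR and RM arrays alone. As shares, 25% were lower in the main fit against 19.4% of all genes, and 20.8% against 7.91% with the NR and RM arrays alone. The median difference was -0.4 over the list, but -0.09 without NR replicate 3, so the list did not fall as a whole. CDC8, thymidylate kinase, went the other way and rose by 1.77. PPR1, the activator of pathway genes, was not called, at 5.06, 5.66 and 5.42 in the NR arrays and 5.64, 5.83 and 5.89 in the RM arrays and an adjusted p of 0.0704. The strain lacks URA3, the gene of the last step, in both groups.

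The other genes among the 12 deepest falls had various roles. MMT1, a mitochondrial iron transporter, read 7.84, 7.17 and 6.79 in the NR arrays and 3.88, 3.88 and 3.87 in the RM arrays, with the RM arrays almost identical and far below NR, and it fell by 3.39. HXK2, the main hexokinase of cells on glucose, read 8.54, 9.61 and 10.33 in the NR arrays and 6.71, 6.2 and 6.61 in the RM arrays, and it fell by 2.98 ± 0.37. The RM arrays were lowest although NR spread over almost 2 log2 units. TPO2, a polyamine exporter, fell by 2.24, SEC59, the dolichol kinase of glycosylation, by 2.21, and PDR12, the exporter of weak acids, by 2.06. BTN2, which takes part in sorting misfolded proteins, fell by 2.09. TOH1, YOR389W, YJL218W and ATR2 fell by between 2.04 and 2.08 on the log2 scale. YJL218W read 3.07, 4.34 and 3.72 in the NR arrays and 1.34, 1.49 and 2.15 in the RM arrays, and its RM values lie within or beside the range of the deleted genes, so its fall is not an exact size. Each of the 24 genes with the largest rises and falls was also called when any 1 of the 6 arrays was left out. The highest adjusted p among them with the NR and RM arrays alone was 0.0248, for ATR2.

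**Figure D2:**
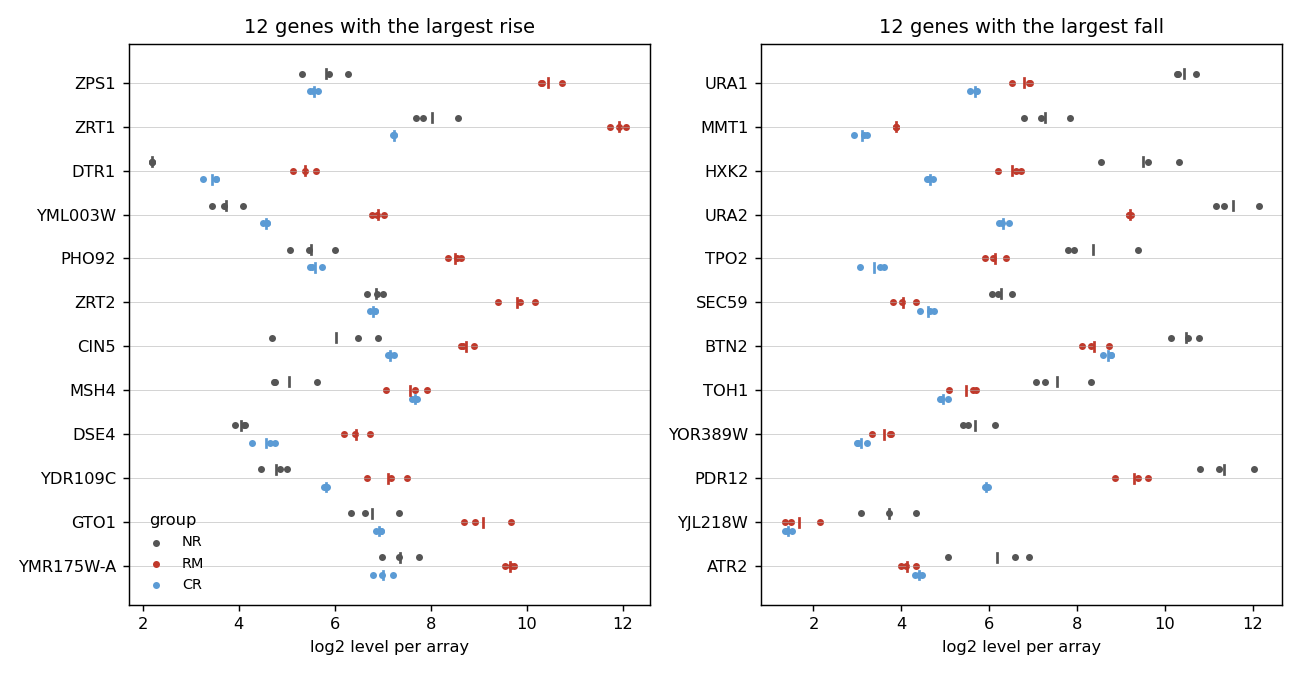
Points give the log2 level of each array for the 12 genes that rose most (left) and fell most (right), with NR in grey, RM in red and CR in blue, and vertical ticks mark group means of 3 arrays. The RM points lie wholly to the right of the NR points on the left panel, from ZPS1 at 4.62 to YMR175W-A at 2.28 by difference of means, and wholly to the left on the right panel.

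**Figure D3:**
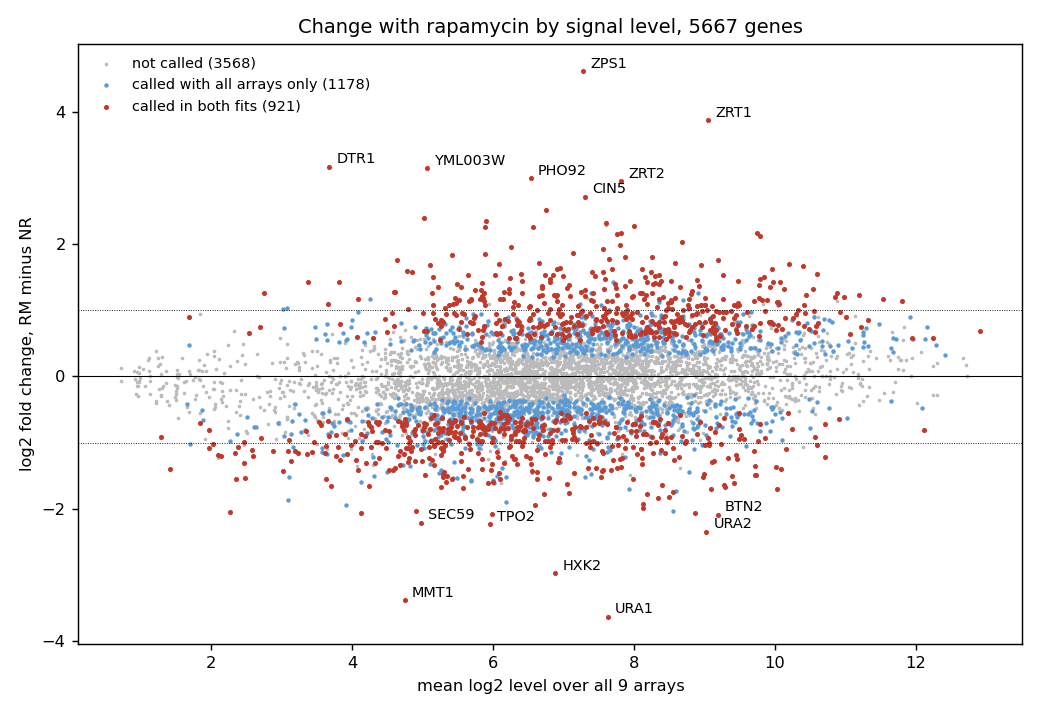
Each point is 1 of 5667 genes, with its mean log2 level over all 9 arrays on the x axis and its log2 difference, RM minus NR, on the y axis; dotted lines mark 2-fold. Grey genes were not called, 1178 blue genes were called only with all arrays in the fit and 921 red genes in both fits.

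Heat shock proteins and chaperones were the list with the largest share of members called lower among the 61 lists. These proteins fold new or damaged proteins and many are controlled by the heat shock factor Hsf1. Of 44 measured members, 28 were lower, 17 of them by 2-fold or more, and 2 were higher; with the NR and RM arrays alone, 20 were lower and 1 was higher. The median difference was -0.75. SSA4, a stress-induced Hsp70, read 9.71, 9.97 and 9.96 in the NR arrays and 7.75, 7.93 and 8.18 in the RM arrays, without overlap, and the difference was -1.93 ± 0.14 (SE, n = 3 a group, limma adjusted p = 5.86e-05). HSP42, a small heat shock protein, read 11.39, 11.5 and 11.26 in the NR arrays and 9.48, 9.58 and 9.96 in the RM arrays and fell by 1.71. SSA1, an abundant Hsp70, fell by 1.75, with NR spread from 9.37 to 11.01. HSP82, HSP104 and STI1, an Hsp90, the disaggregase and an Hsp90 co-chaperone, fell by 1.49, 0.93 and 1.37, and were picked after their values were seen. SSA2 was called in the main fit at -1.61 but not with the NR and RM arrays alone (adjusted p = 0.0739). The gene of Hsf1 itself read 7.82, 7.77 and 7.53 in the NR arrays and 7.7, 7.75 and 7.82 in the RM arrays and was not called (adjusted p = 0.763). The list median was -0.02, 0.04 and -0.03 in the NR arrays and -0.75, -0.91 and -0.61 in the RM arrays, and NR replicate 3 did not stand apart here. In the endoplasmic reticulum, KAR2, the Hsp70 of that compartment, fell by 1.5, whereas EUG1, a protein disulfide isomerase, rose by 1.72.

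Most glycolysis genes were lower as well. Of 23 genes of glycolysis and ethanol formation, 13 were lower and 1 was higher, and 9 and 1 with the NR and RM arrays alone, with a median of -0.81. TPI1, triosephosphate isomerase, read 10.57, 11.07 and 11.66 in the NR arrays and 9.42, 8.96 and 9.9 in the RM arrays and fell by 1.67. GPM1, phosphoglycerate mutase, fell by 1.4 and TDH1, a glyceraldehyde-3-phosphate dehydrogenase, by 1.22, and RM arrays lay below all NR arrays for all 3 genes. PGK1 was called in the main fit only, at -2.03 and 0.0554 with the NR and RM arrays alone. The list median was -0.31, -0.08 and 0.49 in the NR arrays, where replicate 3 was highest, and -0.79, -0.96 and -0.53 in the RM arrays. Without NR replicate 3 the median over members was -0.65 and 12 were lower and 4 higher.

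Mitochondrial energy genes were lower in part. Of 28 genes of the ATP synthase, its assembly and its carriers, 15 were lower and 0 higher, and 8 were lower with the NR and RM arrays alone. ATP2, the catalytic beta subunit, read 10.15, 10.23 and 11.11 in the NR arrays and 8.83, 8.73 and 8.82 in the RM arrays and fell by 1.7 ± 0.22. ATP5 fell by 1.33 and MIR1, the phosphate carrier, by 1.13. Of 27 genes of the mitochondrial tricarboxylic acid cycle and pyruvate dehydrogenase, 9 were lower and 2 higher, with 4 lower with the NR and RM arrays alone, 4 without RM replicate 1 and 14 without NR replicate 1. MPC2, a subunit of the mitochondrial pyruvate carrier, read 8.94, 8.86 and 8.84 in the NR arrays and 7.94, 7.44 and 7.85 in the RM arrays and fell by 1.13, and SDH1, of succinate dehydrogenase, fell by 0.94. Of 41 respiratory chain genes, 11 were lower and 5 higher, again with only 4 lower with the NR and RM arrays alone and 4 without RM replicate 1. Their share lower was 26.8% in the main fit against 19.4% of all genes. With the NR and RM arrays alone it was 9.76%, near the 7.91% of all genes. HAP4, the limiting subunit of the activator of respiratory genes, fell by 0.94 and HAP2, another subunit, rose by 1.16. The mitochondrial ribosome had a median of -0.01 over 71 genes, near that of all genes.

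Proteasome subunits showed a small shift in one direction. Of 51 genes of proteasome subunits and assembly, 43 had differences below 0, 26 were called lower and 2 higher, yet only 2 changed by 2-fold. With the NR and RM arrays alone, 11 were lower and 0 higher, and the main count was 14 without RM replicate 1. PRE7, a subunit of the core particle, read 8.9, 9.07 and 9.08 in the NR arrays and 7.8, 7.52 and 8.01 in the RM arrays and the difference was -1.24 ± 0.14 (SE, n = 3 a group, limma adjusted p = 0.000603). PRE4, another core subunit, fell by 1.0, UMP1, an assembly chaperone, by 0.89, and RPT5, an ATPase of the regulatory particle, by 0.82. ECM29, which binds the assembled particle, fell most, by 1.45. The list median was -0.03, 0.11 and -0.14 in the NR arrays and -0.49, -0.48 and -0.27 in the RM arrays, so each RM array lay below each NR array, and without NR replicate 3 the median difference was -0.44.

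In the main fit the share of ribosome genes called lower was above that of all genes, but with the NR and RM arrays alone it was not. Of 130 cytosolic ribosomal protein genes, 36 were lower and 7 higher in the main fit, with a median of -0.41, but 8 and 4 with the NR and RM arrays alone. As shares, 27.7% were lower in the main fit against 19.4% of all genes, and 6.15% against 7.91% with the NR and RM arrays alone. Without NR replicate 3 the median was -0.21. The number lower was 14 without RM replicate 2 and 61 without NR replicate 1. The list median was -0.2, -0.15 and 0.34 in the NR arrays and -0.4, -0.65 and -0.15 in the RM arrays, so RM replicate 3 lay beside NR replicates 1 and 2. RPP2B, a stalk protein, fell by 1.48 and RPL13A by 1.33, whereas RPS14B read 8.96, 8.23 and 7.96 in the NR arrays and 9.93, 10.59 and 9.77 in the RM arrays and rose by 1.71. Of 137 ribosome biogenesis factors, 32 were lower and 5 higher, or 11 and 2 with the NR and RM arrays alone, and 16 lower without RM replicate 2. The lower share was 23.4% in the main fit and 8.03% with the NR and RM arrays alone, the latter near the 7.91% of all genes. NOP19 read 7.59, 7.82 and 7.97 in the NR arrays and 6.34, 6.05 and 6.33 in the RM arrays and fell by 1.55, and MAK11 read 6.23, 6.39 and 6.27 in the NR arrays and 7.62, 8.28 and 7.62 in the RM arrays and rose by 1.54. Both act in ribosomal subunit assembly.

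Translation factors were also lower more often than higher. Of 41, 19 were lower and 2 higher, and 8 and 1 with the NR and RM arrays alone. As shares, 46.3% were lower in the main fit against 19.4% of all genes, and 19.5% against 7.91% in the stricter fit. DED1, an RNA helicase of initiation, read 9.27, 9.11 and 9.2 in the NR arrays and 8.11, 8.05 and 7.96 in the RM arrays, with tight and separate groups, and the difference was -1.15 ± 0.1 (SE, n = 3 a group, limma adjusted p = 0.000197). TIF4631, the scaffold eIF4G, read 7.67, 7.65 and 7.61 in the NR arrays and 6.83, 6.83 and 6.85 in the RM arrays and fell by 0.81. SUI1, the start codon factor eIF1, rose by 0.81. Of 40 genes of RNA polymerases I and III, 14 were lower and 1 was higher, 4 and 1 with the NR and RM arrays alone. Their share lower was 35% in the main fit, but 10% with the NR and RM arrays alone, near the 7.91% of all genes. TFC4, of the polymerase III factor TFIIIC, fell by 1.17. Among 21 cytosolic tRNA synthetase genes the median was the most negative of this group at -0.68, but 7 were lower in the main fit and 1 with the NR and RM arrays alone, and the main number was 1 without RM replicate 2 and 13 without NR replicate 1. The share of synthetase genes lower with the NR and RM arrays alone was 4.76%, below the 7.91% of all genes. The list median was -0.52, -0.17 and 0.68 in the NR arrays, and without NR replicate 3 the median difference was -0.28.

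**Figure D4:**
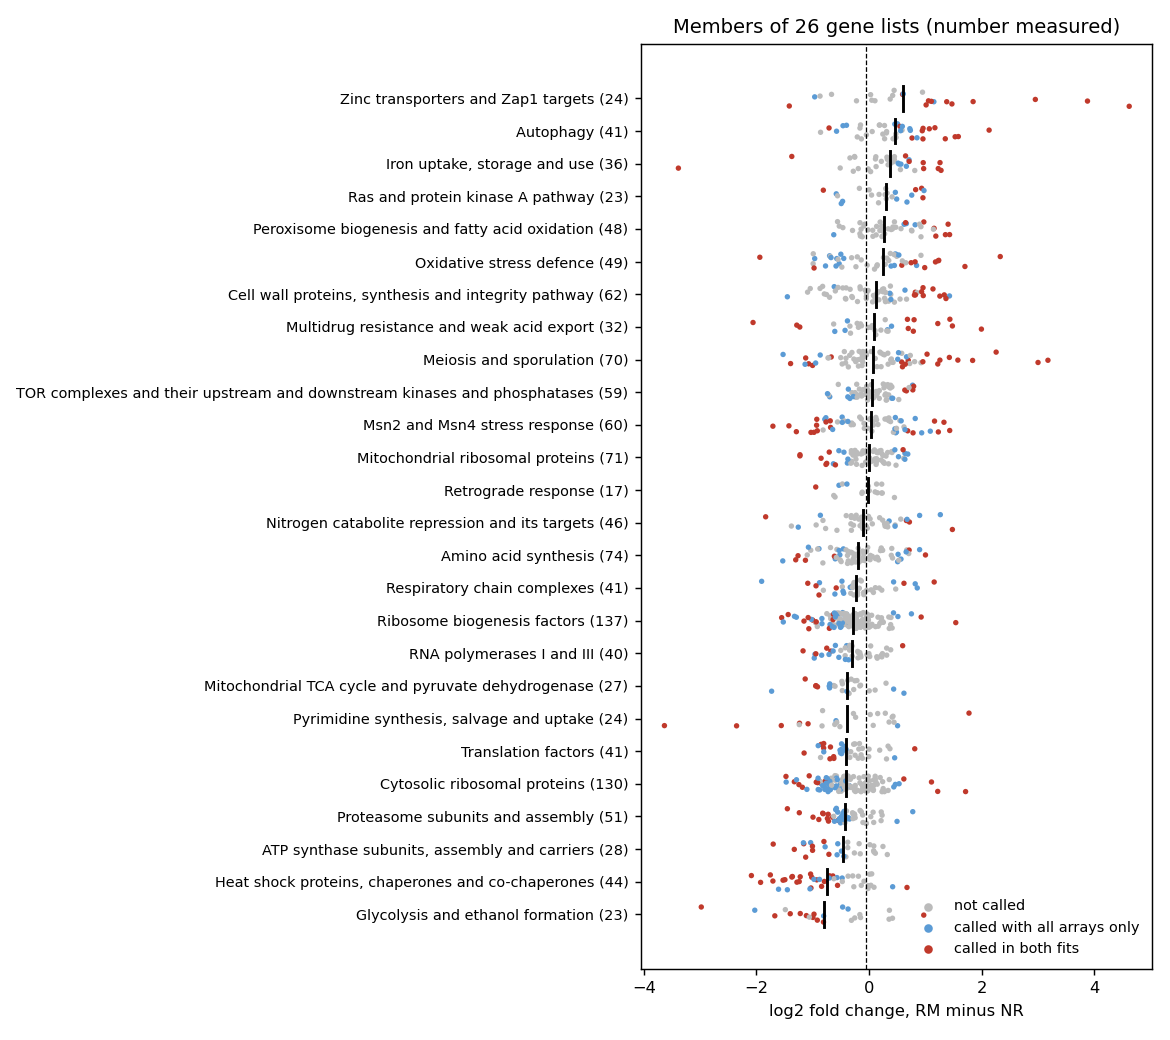
Each point is 1 gene of the named list, placed by its log2 difference, RM minus NR; black ticks mark list medians and the dashed line the median of all genes, -0.05. Red points were called in both fits, blue points only with all arrays in the fit, and grey points in neither; zinc has the highest median at 0.60 and glycolysis the lowest at -0.81.

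Many autophagy genes were higher. Autophagy carries cytoplasm to the vacuole for breakdown and is held back by TOR complex 1. Of 41 genes, 18 were higher and 4 lower, and 11 and 1 with the NR and RM arrays alone, with a median of 0.47. ATG36, the receptor for peroxisome breakdown, read 8.69, 8.79 and 8.21 in the NR arrays and 10.73, 10.72 and 10.64 in the RM arrays, with RM far above NR, and the difference was 2.13 ± 0.15 (SE, n = 3 a group, limma adjusted p = 5.86e-05). ATG41 read 7.29, 7.57 and 6.87 in the NR arrays and 8.83, 8.85 and 8.81 in the RM arrays and rose by 1.59. ATG3, a conjugating enzyme for Atg8, rose by 1.53, and ATG16, of the conjugation complex, by 1.35. ATG7, the activating enzyme of the same system, read 6.76, 6.66 and 6.58 in the NR arrays and 7.18, 7.24 and 7.23 in the RM arrays, a small but separate rise of 0.55. ATG8, the protein conjugated to the membrane, read 11.09, 10.74 and 10.35 in the NR arrays and 11.45, 11.5 and 11.42 in the RM arrays, without overlap, but its adjusted p of 0.0115 in the main fit became 0.0512 with the NR and RM arrays alone. The list median was 0.22, 0.09 and -0.31 in the NR arrays and 0.38, 0.53 and 0.34 in the RM arrays, and without NR replicate 3 the median difference was 0.32.

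Peroxisome genes were called higher at a share close to that of all genes in the main fit. Of 48 genes of peroxisome biogenesis and fatty acid oxidation, 10 were higher and 1 was lower, and 7 and 0 with the NR and RM arrays alone. The share higher was 20.8% against 17.6% of all genes, and 14.6% against 8.35% with the NR and RM arrays alone, and 4 were lower without NR replicate 3. PEX3, needed to form the peroxisome membrane, read 9.66, 9.27 and 8.42 in the NR arrays and 10.57, 10.59 and 10.47 in the RM arrays and rose by 1.43. PEX13, of the import docking complex, rose by 1.4, and PEX18, an import co-receptor, by 1.36. The list median was 0.16, 0.22 and -0.37 in the NR arrays and 0.27, 0.38 and 0.34 in the RM arrays. Without NR replicate 3 the median over members was only 0.08.

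**Figure D5:**
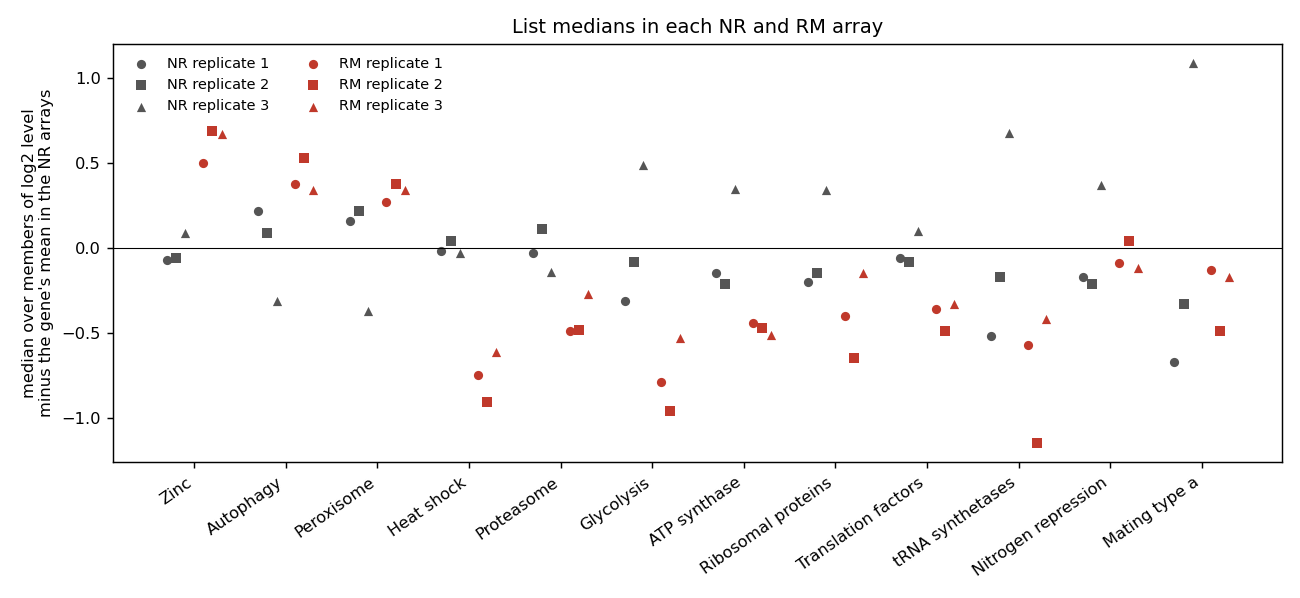
Points give, for each NR (grey) and RM (red) array, the median over a list's members of the log2 level minus that gene's mean in the NR arrays, with replicates 1, 2 and 3 as circle, square and triangle. In the heat shock and proteasome lists each RM point is below each NR point, whereas the mating type a genes reach 1.09 in NR replicate 3 against -0.67 and -0.33 in the other NR arrays.

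Iron genes were higher more often than lower. Of 36 genes of iron uptake, storage and use, 12 were higher and 2 lower, and 7 and 2 with the NR and RM arrays alone; 5 were lower without NR replicate 3. The siderophore transporters SIT1 and ENB1 rose: SIT1 read 7.32, 7.53 and 7.45 in the NR arrays and 8.77, 8.67 and 8.55 in the RM arrays and the difference was 1.23 ± 0.11 (SE, n = 3 a group, limma adjusted p = 0.000197), and ENB1 rose by 1.28. TIS11, which promotes decay of messages for iron-using proteins, rose by 1.26. FIT2, a cell wall protein that helps retain siderophores, fell by 1.37, and MMT1 fell as given above.

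Cell wall genes were called higher more often than lower, and drug transport genes held both rises and falls. Of 62 cell wall genes, 14 were higher and 2 lower, and 10 and 0 with the NR and RM arrays alone. Without NR replicate 1, 10 were lower. As main-fit shares, 22.6% were higher and 3.23% lower, against 17.6% and 19.4% of all genes. With the NR and RM arrays alone they were 16.1% and 0%, against 8.35% and 7.91%. CTS1, the chitinase of cell separation, read 8.76, 8.56 and 8.55 in the NR arrays and 9.8, 10.2 and 9.96 in the RM arrays and rose by 1.37, and EGT2, another gene of cell separation, rose by 1.7. Among 32 genes of multidrug resistance and weak acid export, 10 were higher and 6 lower, 8 and 3 with the NR and RM arrays alone, and 3 were lower without RM replicate 1. Here 31.2% were higher and 18.8% lower in the main fit, the lower share near that of all genes. The stricter fit had 25% higher and 9.38% lower. PDR5, a major drug exporter, read 10.67, 10.41 and 10.3 in the NR arrays and 9.18, 9.3 and 9.04 in the RM arrays and fell by 1.28, whereas the related transporter PDR18 read 7.51, 6.94 and 6.5 in the NR arrays and 8.89, 9.21 and 8.83 in the RM arrays and rose by 2.0. FLR1, an exporter of another family, read 7.83, 7.66 and 7.48 in the NR arrays and 9.09, 9.18 and 9.01 in the RM arrays and rose by 1.44, with all 3 genes free of overlap. Gene copies of Ran also moved apart, GSP1 falling by 1.09 and GSP2 rising by 1.14.

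Meiosis and sporulation genes included 9 rises and 6 falls of 2-fold or more in the main fit, in a haploid strain. Over all genes, 3.99% were higher and 4.66% lower by that much. Of 70, 17 were higher and 9 lower, 14 and 5 with the NR and RM arrays alone, while the median was 0.07. Without RM replicate 2, 5 were lower. The share higher was 24.3% against 17.6% of all genes, and 20% against 8.35% with the NR and RM arrays alone. The share lower, at 12.9% against 19.4% and 7.14% against 7.91%, was not above that of all genes. SPS4 read 5.94, 4.45 and 4.05 in the NR arrays and 7.24, 6.87 and 7.1 in the RM arrays and rose by 2.26, LDS2, of spore lipid droplets, rose by 1.84, and IME4, the messenger RNA adenosine methyltransferase, by 1.58. IME1, the master activator of meiosis, read 8.6, 7.69 and 6.98 in the NR arrays and 8.39, 9.09 and 7.54 in the RM arrays, with overlap, and was not called. NDT80, the activator of middle meiotic genes, lay between 4.62 and 4.76 in all 6 arrays and was not called. Among 10 markers of sporulating diploids, 4 were higher and 0 lower in both fits, and their summed signal was 4448 to 5206 in NR and 6957 to 7508 in RM. SPS100, a spore wall gene among these markers, was bright throughout at 12.16, 12.07 and 12.03 in the NR arrays and 12.61, 12.69 and 12.69 in the RM arrays and rose by 0.58. It made up most of the summed signal in both groups, so the sum mainly follows this gene.

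Stress genes did not move together. Of 60 genes of the Msn2 and Msn4 response, 15 were higher and 17 lower, and 6 and 11 with the NR and RM arrays alone. The number higher was 7 without RM replicate 1. As main-fit shares, 25% were higher and 28.3% lower, against 17.6% and 19.4% of all genes. With the NR and RM arrays alone, 10% were higher, near the 8.35% of all genes, and 18.3% lower, against 7.91%. CTT1, cytosolic catalase, read 10.12, 10.9 and 10.84 in the NR arrays and 11.74, 11.93 and 11.87 in the RM arrays and rose by 1.23, and ALD3, an aldehyde dehydrogenase, rose by 1.33. GPH1, glycogen phosphorylase, fell by 1.42, and TSL1, of trehalose synthesis, read 9.73, 10.18 and 10.08 in the NR arrays and 8.77, 8.5 and 8.84 in the RM arrays and fell by 1.29. In oxidative stress defence, 15 of 49 were higher and 11 lower, 9 and 2 with the NR and RM arrays alone, and 2 were lower without RM replicate 1. The shares were 30.6% higher and 22.4% lower in the main fit, and 18.4% and 4.08% with the NR and RM arrays alone. OYE2, an NADPH oxidoreductase, fell by 1.94, and GTT1, a glutathione transferase, rose by 1.24. Stationary phase genes FMP45 and MOH1 rose by 1.63 and 1.32.

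Transcripts of the TOR pathway itself changed little. Of 59 genes of the TOR complexes and their partners, 7 were higher and 6 lower, shares below those of all genes, and 4 and 0 with the NR and RM arrays alone; the main counts were 12 and 14 without NR replicate 1, and 0 were lower and 4 higher without RM replicate 1. TOR1 and TOR2, the kinases, differed by -0.13 and -0.24, and KOG1 and LST8, subunits of the complex, by -0.05 and -0.03. FPR1, the receptor of the drug, read 9.36, 10.11 and 10.33 in the NR arrays and 9.87, 9.4 and 9.78 in the RM arrays, with overlap and a difference of -0.25. SCH9, a kinase directly downstream, differed by 0.13, MAF1, the repressor of RNA polymerase III, by 0.14, and SFP1, an activator of ribosome genes, by -0.03. None of these 8 was called, and adjusted p ran from 0.208 for TOR2 to 0.884 for LST8, which does not show that they were equal. SLM4, a subunit of the EGO complex that activates TOR complex 1 at the vacuole, read 8.36, 7.93 and 7.87 in the NR arrays and 8.89, 8.75 and 8.9 in the RM arrays and rose by 0.79. In the Ras and protein kinase A pathway, YAK1, a kinase that opposes growth, rose by 0.96, and CDC25, the Ras activator, fell by 0.81.

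In 3 lists tied to nitrogen, the retrograde response and amino acid synthesis, the share called higher in the main fit was not above the 17.6% of all genes. Nitrogen catabolite repression silences genes for poor nitrogen sources through Gln3 and Gat1. Of its 46 listed genes, 8 were higher and 3 lower, 3 and 1 with the NR and RM arrays alone, with a median of -0.1. NR replicate 3 was the highest array for this list, with medians of -0.17, -0.21 and 0.37 in NR and -0.09, 0.04 and -0.12 in RM. Without NR replicate 3, 14 of the 46 were higher, a larger share than the 1018 of 5667 over all genes. The median was then 0.22, against -0.02 over all genes, so the main-fit share of this list depended on that array. Leaving out RM replicate 2 instead gave 4 higher. GAP1, the general amino acid permease, read 8.99, 9.93 and 11.39 in the NR arrays and 9.8, 10.01 and 9.72 in the RM arrays, and MEP2, an ammonium permease, 8.28, 8.25 and 10.83 in the NR arrays and 7.59, 7.88 and 7.74 in the RM arrays, and neither was called. Leaving out NR replicate 3 turned the GAP1 difference from -0.26 to 0.39, uncalled, and MEP2 went from -1.38 to -0.52. GLN3 read 6.27, 6.07 and 5.99 in the NR arrays and 6.79, 6.83 and 6.7 in the RM arrays and rose by 0.66, whereas GAT1 and DAL80, a repressor of the set, were not called. CAR1, arginase, fell by 1.84, and UGX2 rose by 1.48.

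In the retrograde response, which links mitochondrial state to nuclear genes, 0 of 17 were higher and 3 lower, with 1 lower in the fit of the NR and RM arrays alone. CIT2, its classic target, read 11.52, 11.46 and 11.66 in the NR arrays and 11.51, 11.4 and 11.37 in the RM arrays and DLD3 9.18, 8.8 and 8.72 in the NR arrays and 8.95, 8.95 and 8.41 in the RM arrays, both with overlapping groups and neither called. Amino acid synthesis had 7 of 74 higher and 11 lower, and 2 and 4 with the NR and RM arrays alone; 22 were lower without NR replicate 1 and 5 without RM replicate 2. GCN4, the activator of these genes, was not called at -0.37 (adjusted p = 0.0595). MSN2 was called in the main fit at 0.47 but not with the NR and RM arrays alone (0.0778), and MSN4 in neither. The Snf1 list held 5 higher genes of 17 in both fits, beside 3 lower in the main fit and 1 with the NR and RM arrays alone, and its median was 0.03. Among the higher genes was MIG1, the glucose repressor, which rose by 1.41.

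Even changes under 1.5-fold could be free of overlap. The 6 called genes under 1.5-fold with the lowest adjusted p were SPS100, YAH1, TDA5, SLA1, AHP1 and ATG7, all called in both fits. AHP1, a peroxiredoxin, read 11.69, 11.7 and 11.46 in the NR arrays and 12.19, 12.22 and 12.19 in the RM arrays and rose by 0.58 ± 0.11. SLA1, of actin patches, read 7.71, 7.74 and 7.58 in the NR arrays and 8.25, 8.31 and 8.18 in the RM arrays and rose by 0.57. YAH1, a mitochondrial ferredoxin, read 6.4, 6.48 and 6.55 in the NR arrays and 6.0, 5.84 and 5.84 in the RM arrays and fell by 0.58. For each, the gap between the groups was larger than the range within either.

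The balance of rises and falls depended on signal. When genes were split into 4 equal groups by mean level over all arrays, 9.67% of the dimmest group were called higher and 25.2% lower, against 26.5% and 14.9% of the brightest group. With the NR and RM arrays alone, 65 of the 1417 dimmest genes were higher and 176 lower, against 190 and 81 of the 1417 brightest. The split used the same arrays as the differences, so the 2 are not independent. The median difference went from -0.25 in the dimmest through -0.11 and 0.06 to 0.15 in the brightest. Genes within 10 genes of a chromosome end, 243 in all, were called higher in 18.9% and lower in 16.0%, against 17.5% and 19.7% of genes farther in. With the NR and RM arrays alone, 24 of the 243 were higher and 20 lower, against 447 and 427 of 5400 farther in.

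Where RM could be set directly against CR, the contrast RM minus CR called 3180 genes (56.1%), 1496 higher and 1684 lower in RM. The largest zinc gene rises also held against CR: ZPS1 was higher in RM than in CR by 4.88 (adjusted p = 7.14e-07) and ZRT1 by 4.69 (adjusted p = 6.52e-07). Of the 24 zinc genes, 16 were higher in RM than in CR and 3 lower. ZRC1 was higher by 1.12, whereas ZRT3 differed by only 0.01 and was not called (limma adjusted p = 0.932). Proteasome genes were lower in RM than in CR for 37 of 51 and higher for 2, against 29.7% lower and 26.4% higher over all genes. Ribosomal protein genes were higher in RM than in CR for 123 of 130 and lower for 0, and glycolysis genes for 19 and 2 of 23. The ribosomal protein median, set to the NR mean as above, was -2.11, -2.13 and -2.08 in the CR arrays, and that of glycolysis -3.14, -3.07 and -3.11. URA1 was higher in RM than in CR by 1.13, and MSH4 and BTN2 did not pass that test, with differences of -0.11 and -0.33.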

How the data were processed

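Total RNA of each culture was labelled and hybridised to Affymetrix GeneChip Yeast 2.0 arrays, per the labels' protocols. RMA (robust multi-array averaging) and Transcriptome Analysis Console 2.0 are the tools listed, per the submitters' processing notes; which step each served was not stated there. The deposited values per array are on the log2 scale: differences of group means equal the log2 of the signed fold changes in the authors' deposited table within 7.1e-10. The p-values in the authors' deposited table served only as an alternative. The number of arrays limits the precision; the median half-width of a 95% interval was 0.385 on the log2 scale.

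The first listed of 5716 probe sets was kept for each open reading frame, leaving 5667 genes (47 had several); 5646 matched the RefSeq table of assembly R64 for names. No coordinates are printed, since no source used here names the build behind the probes. Group means of all 9 arrays were fitted with limma 3.58.1 (R 4.3.3; lmFit and eBayes, 3.27 prior and 6 residual degrees of freedom) and the contrasts RM minus NR and RM minus CR tested two-sided, with Benjamini-Hochberg adjustment over all genes. On simulated data drawn with each group's own spread, the fit of all arrays made more false calls than its adjusted p allows, and the fit of the NR and RM arrays alone made fewer. The CR arrays were tighter than the others, so the pooled fit makes p-values for RM against NR too small where NR or RM spread more, and the fit of the NR and RM arrays alone is given beside it. Tables were made with Python 3.11.15 and pandas 2.3.3.

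Gene lists (61) are described by counts and medians, with no test. Named genes were the 12 largest rises and falls among called genes whose groups did not overlap, up to 5 called genes of each list with the largest change, 23 pathway genes whatever their change, and the 6 called genes under 1.5-fold with the lowest adjusted p. The comparison, lists and rules were chosen with earlier results of these data known. Alternatives were the replicate number as a block, each array left out, centring, repeated quantile normalization, a filter on dim genes, eBayes with trend and robust options, the mean over probe sets, and the deposited p-values.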

Additional observations from a re-analysis of the deposited data

How the results depend on the processing

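The number of genes called between RM and NR was 2099 with all arrays, 921 with the NR and RM arrays only, 1076 with the NR and RM arrays only and without NR replicate 3, and 1027 with variance weights per group; the last 2 settings were chosen after seeing the data, as was leaving out NR replicate 3 together with RM replicate 2 (2148, and 367 at 2-fold or more). Leaving out 1 array at a time gave 1205 to 2729 genes, and 376 to 783 at 2-fold or more against 490 with all arrays. For RM against CR, leaving out 1 array gave 2682 to 3067 genes against 3180. The p-values of the authors' deposited table gave 1902 genes, and 436 at 2-fold or more. Centring, repeated quantile normalization, trend and robust options and the filter on dim genes kept each of these counts within 1.5-fold, as did the mean over probe sets for RM against NR, for which alone it was run. Deviations from the group means of same-numbered NR and RM arrays correlated at -0.198, -0.0196 and 0.348. For differently numbered arrays the correlations ran from -0.536 to 0.52. These values show no pairing by replicate number, but with 3 arrays a group they cannot settle whether cultures were grown in matched sets. With the replicate number as a block, 1959 genes were called between RM and NR, 498 of them at 2-fold or more, and 3123 between RM and CR. Of 280 called genes under the naming rule, 275 stayed called with the block and 196 with the NR and RM arrays only. MFA2 and STE6, mating type a genes not called with all arrays, changed sign with the arrays used. MFA2 was -0.31 with all arrays, between -0.68 and 0.39 with 1 array left out (0.39 without NR replicate 3), and 0.48 without NR replicate 3 and RM replicate 2. STE6 was -0.16, between -0.37 and 0.27, and 0.42; the cause was not tested. Each group had 3 arrays, and of the 635 changes under 1.5-fold called with all arrays, 23 were called with the NR and RM arrays only.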

Other observations

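Further gene groups held changes in both directions. Among 45 genes of fatty acid, phospholipid and inositol synthesis, 6 were higher and 4 lower, and 4 and 2 with the NR and RM arrays alone. These shares, 13.3% and 8.89% in the main fit, lie below the 17.6% and 19.4% of all genes, and without NR replicate 1 the counts were 10 and 9. FAA3, a fatty acyl-CoA synthetase, read 7.64, 7.44 and 7.36 in the NR arrays and 8.74, 8.75 and 8.71 in the RM arrays and rose by 1.26, and EKI1, ethanolamine kinase, rose by 1.58. ISC1, a phospholipase C that cleaves inositol sphingolipids, read 5.07, 5.04 and 5.02 in the NR arrays and 6.64, 6.12 and 6.61 in the RM arrays, with the RM arrays well above, and rose by 1.41. In sterol metabolism ERG20, farnesyl diphosphate synthase, fell by 1.52, and ARE1, a sterol acyltransferase, rose by 1.24. Among genes of chromatin and silencing, SIR3 read 6.44, 6.16 and 6.19 in the NR arrays and 7.74, 8.14 and 7.5 in the RM arrays and rose by 1.53, RSC9, of the RSC remodelling complex, rose by 1.63, and HDA1, a histone deacetylase, read 5.76, 5.72 and 5.98 in the NR arrays and 4.5, 4.79 and 4.57 in the RM arrays and fell by 1.2.

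Cell cycle genes were also divided. Of 59 cyclin, Start and S phase genes, 9 were higher and 16 lower, and 7 and 8 with the NR and RM arrays alone; 8 were lower without RM replicate 1. As main-fit shares, 15.3% were higher and 27.1% lower, against 17.6% and 19.4% of all genes. With the NR and RM arrays alone they were 11.9% and 13.6%, against 8.35% and 7.91%. CLN2, a G1 cyclin, read 4.77, 4.74 and 5.28 in the NR arrays and 5.98, 6.18 and 5.93 in the RM arrays and rose by 1.1. WHI5, the repressor of Start, read 5.38, 5.27 and 4.74 in the NR arrays and 6.22, 6.22 and 6.22 in the RM arrays and rose by 1.09, while PCL2, another G1 cyclin, fell by 1.12. Among permeases, SSY1, the plasma membrane amino acid sensor, read 7.15, 6.76 and 6.42 in the NR arrays and 8.21, 8.42 and 8.04 in the RM arrays and rose by 1.45, and PHO89, a sodium-coupled phosphate transporter, read 10.32, 10.01 and 9.92 in the NR arrays and 11.49, 10.94 and 11.4 in the RM arrays and rose by 1.2. The RM and NR arrays did not overlap for any of these 5 genes.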
